A study of Mus musculus with 6 samples.

Results

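Atf3, 6 genes of the AP-1 family (Fos, Fosb, Fosl2, Jun, Junb and Jund) and the immediate early genes Egr1, Nr4a1 and Nr4a3 were examined in bulk RNA-Seq of mouse gastrocnemius/plantaris (GP) muscle. The 10 genes were taken by symbol from the 24421 genes listed in the count tables, and all 10 were among the 14180 genes with enough counts to be tested. The study asked what loss of Net39, a nuclear envelope protein of muscle, does to adult muscle. The labels give 3 libraries to Ctrl, from mice with Net39 fl/fl and no Cre, and 3 to cKO, from HSACreERT2;Net39 fl/fl mice. Both groups were males, with B6C3F1 given as the strain in the labels, at 5 months of age and 3 months after tamoxifen, which all mice received at 100 mg/kg for 5 days from 8 weeks of age. The methods describe founders from B6C3F1 zygotes that were bred to C57BL/6N. Cre was driven by the human skeletal actin promoter, so deletion was aimed at muscle fibres and not at the other cells of the tissue. Each library is taken as 1 mouse. The p-values measure the spread between these 3 and 3 libraries.

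The targeted gene went against the labels. Ppapdc3, the symbol under which Net39 is listed, had 7.92, 7.75 and 5.93 CPM in the Ctrl-labelled libraries and 151, 113 and 138 CPM in the cKO-labelled ones (log2 fold change, labelled cKO over labelled Ctrl, 4.22, SE 0.17, adjusted p = 0.000161, edgeR's quasi-likelihood test). CPM is each gene's share of its library's counts, multiplied to a common total and scaled between libraries by the trimmed mean of M values (TMM). Every direction is therefore given for libraries as labelled, and which label belongs to the mice that lost Net39 was not settled here. The paper reports less Net39 mRNA in cKO muscle by RNA-Seq. It also counts Atf3 in the p53 pathway, which it reports as upregulated in cKO muscle. Ppapdc3 and, below, Atf3 run the other way in the libraries as labelled. Total counts were 33860001 to 38201728 in the Ctrl-labelled libraries and 39191239 to 48839910 in the cKO-labelled ones, and the 10 most abundant genes of a library held 14.7 to 17.1% and 21.8 to 25.3% of the counts. All 10 skeletal muscle fibre markers were detected. Of 5 red blood cell markers, the 4 globin genes were at 0 in every library. The fifth, Alas2, looked up after the values were seen, stood at 3.97 to 8.76 CPM. Why the globin genes had no counts was not tested, so these zeros do not show a lack of blood cells.

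Immediate early genes are transcribed within minutes of a stimulus from factors already present in the cell, and their mRNAs are short-lived. FOS proteins pair with JUN proteins to form AP-1, which binds DNA through a basic leucine zipper, and ATF3 is a related leucine zipper protein that is induced by many kinds of stress. EGR1 is a zinc finger factor and NR4A1 and NR4A3 are orphan nuclear receptors. In skeletal muscle, these genes are known to respond to contraction, exercise, adrenergic signals and injury.

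Summed, the 10 genes held 0.0657 to 0.119% of the counts in Ctrl-labelled libraries and 0.0535 to 0.0806% in the cKO-labelled ones. Genes past 2-fold with an adjusted p below 0.05 are termed called. Atf3 was the 1 member called higher in the Ctrl-labelled libraries, against 3.92% of all genes tested, and 0 were called higher in the cKO-labelled ones, against 2.13%. DESeq2's Wald test also gave 1 and 0. At an adjusted p under 0.05 with no fold limit, Jund joined Atf3, so that 2 members were higher in Ctrl-labelled libraries (11.8% of all genes) and 0 in the cKO-labelled ones (12.6% of all genes). The same 2 and 0 had an unadjusted p under 0.05. These 2 were also the members whose 3 Ctrl-labelled libraries all lay above the 3 labelled cKO, which 21.9% of all genes did, while 0 members lay wholly the other way, which 22% did. The other 8 overlapped. The median log2 fold change of the members was -0.67 and that of all genes -0.02.

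Promoter sequence was examined because the members are induced together in many cells. It is shown for Atf3, the member called, for Fos, which varied widely between mice, and for Nr4a1 and Nr4a3, which held the most matches to the motif described here. The RefSeq promoter table (GRCm38.p6, 250 bases before to 50 after the start) held 9 of the 10 members, all but Egr1. The cAMP response element, TGACGTCA, which binds CREB and ATF factors, was in 0 of the 9 promoters on either strand and in 1.79% of all 32851 promoters. Its half-site, TGACG, which overlaps the full element and was searched after the full motifs gave no match, was in 6 of the 9 and in 20.8% of all promoters. Nr4a1 and Nr4a3 each held 4 half-sites, a number reached by 0.231% of all promoters. The sequences run 5′ to 3′ on the gene's own strand, and capitals mark TGACG or its reverse complement CGTCA. Atf3 (minus strand, chr1:191183334-191183483), Fos (plus strand, chr12:85473740-85473889) and Nr4a1 (plus strand, chr15:101266596-101266845) are shown up to the last base before the RefSeq start, and Nr4a3 (plus strand, chr4:48045055-48045164) from 250 to 141 bases before it. The annotated genes of Atf3, Nr4a1 and Nr4a3 also hold transcripts that begin upstream of this start, and 7 of the Atf3 bases and 12 of the Nr4a3 bases shown lie in annotated exons. The Atf3 half-site and the Nr4a3 half-site 147 to 143 bases before the start are in such exons.
Atf3: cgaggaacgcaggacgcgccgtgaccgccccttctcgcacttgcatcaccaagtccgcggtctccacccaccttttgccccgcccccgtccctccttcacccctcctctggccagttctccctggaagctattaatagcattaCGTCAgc
Fos: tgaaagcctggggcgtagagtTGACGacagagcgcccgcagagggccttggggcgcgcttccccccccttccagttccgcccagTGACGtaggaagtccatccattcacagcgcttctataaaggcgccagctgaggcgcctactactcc
Nr4a1: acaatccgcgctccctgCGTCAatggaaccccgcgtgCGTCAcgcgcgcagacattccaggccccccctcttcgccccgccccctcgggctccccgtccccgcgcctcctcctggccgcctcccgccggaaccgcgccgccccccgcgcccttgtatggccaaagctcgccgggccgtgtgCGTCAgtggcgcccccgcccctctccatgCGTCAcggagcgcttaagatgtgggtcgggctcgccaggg
Nr4a3: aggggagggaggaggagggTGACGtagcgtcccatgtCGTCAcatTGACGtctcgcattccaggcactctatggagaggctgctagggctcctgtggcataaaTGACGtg

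In Atf3, the half-site lay 7 to 3 bases before the start. The Fos half-sites lay 129 to 125 and 66 to 62 bases before the start, and those of Nr4a1 were spread from 233 to 36 bases before it. The AP-1 site TGACTCA was in 0 of the 9 promoters (5.20% of all), the EGR site GCGTGGGCG in 0 (0.612%), the NR4A site AAAGGTCA in 0 (1.51%) and the CArG box, the core of the serum response element, in 0 (1.63%). The GC form of the EGR site, GCGGGGGCG, also searched after the first motifs, was in Fosb, Fosl2 and Nr4a1, 3 of the 9, and in 2.91% of all promoters. The 3 promoters without the half-site were those of Fosl2, Jun and Jund, which are also the 3 members that varied least between mice (SD of log2 CPM 0.222, 0.226 and 0.192). A count of 0 for a motif, the CArG box among them, holds only for the window searched and leaves out Egr1. Bases further upstream were not searched, so it does not show that a gene lacks the element. The shares over all promoters were not matched to the members for base composition. A match is a run of letters in this window and not a measured binding site, and the half-site was chosen after the data were seen, so this is a description with no test.

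ATF3, whose gene lies at chr1:191170296-191218039 on the minus strand (GENCODE M21, GRCm38, also called mm10), had the largest difference of the members. Atf3 stood at 77.8, 37.2 and 133 CPM in the Ctrl-labelled libraries and at 6.04, 14.4 and 11.7 CPM in the cKO-labelled ones. The lowest library labelled Ctrl lay above the highest labelled cKO, and libraries differed within each group as well, by 3.57-fold between the highest and lowest labelled Ctrl and 2.39-fold in the cKO-labelled ones. Atf3 was 7.70-fold higher in the Ctrl-labelled libraries (log2 fold change -2.94, SE 0.50, 95% interval -4.13 to -1.76, adjusted p = 0.00850, edgeR's quasi-likelihood test). An exact two-sided permutation test of its CPM gave p = 0.1, the smallest that 3 against 3 libraries allow. With each library left out in turn, the log2 fold change ran from -3.29 to -2.42 and the adjusted p of the same edgeR test from 0.0119 to 0.0352.

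FOS and its relatives form the partner side of AP-1 that is newly made after a stimulus. Fos (chr12:85473890-85477273, plus strand) stood at 196, 35.7 and 57.3 CPM in the Ctrl-labelled libraries and at 19.8, 16.7 and 63.8 CPM in the cKO-labelled ones. A single library in each group was far above the others, Ctrl 1 and cKO 3, and cKO 3 lay above 2 of the 3 labelled Ctrl. The log2 fold change was -1.53 (SE 0.74, 95% interval -3.27 to 0.22, adjusted p = 0.175, edgeR's quasi-likelihood test), which does not pass. Without Ctrl 1 it was -0.47 and without cKO 3 it was -2.42, with 0 of the 6 leave-one-out fits passing.

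Fosb, a close relative of Fos, stood at 11.2, 1.81 and 10.7 CPM in the Ctrl-labelled libraries and at 4.74, 1.40 and 7.09 CPM in the cKO-labelled ones. The libraries numbered 2 were the lowest of both groups, and the groups overlapped. The range within a group was 6.17-fold and 5.06-fold, wider than the 1.78-fold difference between the group estimates (log2 fold change -0.83, SE 0.73, adjusted p = 0.436, edgeR's quasi-likelihood test). Fosl2, which encodes the FOS-related protein FRA-2, stood at 43.6, 42.8 and 36.1 CPM against 30.4, 28.5 and 40.8 CPM. Of the FOS relatives it was the steadiest, and cKO 3 was the library that made the groups overlap. Its log2 fold change was -0.30 (SE 0.15, adjusted p = 0.188), and -0.49 without cKO 3 (adjusted p = 0.0498, both by edgeR's quasi-likelihood test).

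The JUN proteins pair with FOS proteins, with ATF proteins or with each other, and JUND is the member that is made in resting cells. Jund (chr8:70698949-70700616, plus strand, a single exon) stood at 186, 134 and 161 CPM in the Ctrl-labelled libraries and at 77.6, 80.6 and 92.6 CPM in the cKO-labelled ones. All 3 Ctrl-labelled libraries lay above all 3 labelled cKO, with a highest over lowest ratio of 1.39 and 1.19 within the groups. Jund was 1.92-fold higher in the Ctrl-labelled libraries (log2 fold change -0.94, SE 0.13, 95% interval -1.26 to -0.63, adjusted p = 0.00518, edgeR's quasi-likelihood test), just under the 2-fold limit of a call. It passed the adjusted p in all 6 leave-one-out fits, with log2 fold changes of -1.05 to -0.82, and crossed 2-fold without Ctrl 2 (-1.05) and without cKO 3 (-1.04). Of its 1668 exon bases, 877 lie opposite the antisense gene Gm11175, which is not a row of the tables, and the strand setting of the counting is not given in the sources used here, so reads of the pair cannot be told apart.

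Jun, the founding member of the JUN family, stood at 264, 179 and 197 CPM in the Ctrl-labelled libraries and at 209, 181 and 213 CPM in the cKO-labelled ones. The groups overlapped almost wholly, and the log2 fold change was -0.09 (SE 0.15, 95% interval -0.45 to 0.28, adjusted p = 0.714, edgeR's quasi-likelihood test), an interval that leaves out a 2-fold difference either way. Jun shares 232 exon bases with the antisense gene Junos.

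Junb, a JUN relative that is itself an immediate early gene, stood at 20.4, 18.6 and 24.7 CPM in the Ctrl-labelled libraries and at 9.34, 8.88 and 42.0 CPM in the cKO-labelled ones. Libraries cKO 1 and cKO 2 lay below every library labelled Ctrl and cKO 3 above every one. With all libraries the log2 fold change was -0.08 (SE 0.58, adjusted p = 0.938), and without cKO 3 it was -1.23 (SE 0.15, adjusted p = 0.0116, both by edgeR's quasi-likelihood test). A single library thus decides the value of Junb, and without Ctrl 3, cKO 1 or cKO 2 its log2 fold change was 0.05, 0.25 or 0.27. Junb shares 173 exon bases with Prdx2 on the opposite strand.

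Egr1, whose protein binds GC-rich sites, stood at 23.7, 23.4 and 33.5 CPM in the Ctrl-labelled libraries and at 14.1, 11.7 and 31.2 CPM in the cKO-labelled ones. The order was like that of Junb, with cKO 1 and cKO 2 below every library labelled Ctrl and cKO 3 among them. The log2 fold change was -0.50 (SE 0.36, adjusted p = 0.346), and -1.08 without cKO 3 (SE 0.19, adjusted p = 0.0244, both by edgeR's quasi-likelihood test). Leaving out cKO 3 raised the members called higher in Ctrl-labelled libraries from 1 to 4, which were Atf3, Junb, Jund and Egr1. The share of all genes called in that fit is not given here, so the rise is not read as particular to these genes.

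Nr4a1, the orphan receptor NUR77, was the member with a positive log2 fold change. It stood at 236, 127 and 257 CPM in the Ctrl-labelled libraries and at 268, 190 and 383 CPM in the cKO-labelled ones. The groups overlapped, with Ctrl 2 and cKO 2 the lowest of their groups (log2 fold change 0.44, SE 0.32, 95% interval -0.32 to 1.19, adjusted p = 0.352, edgeR's quasi-likelihood test).

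Nr4a3, the receptor NOR1 (chr4:48045153-48086447, plus strand), stood at 9.37, 5.21 and 80.5 CPM in the Ctrl-labelled libraries and at 6.46, 11.1 and 10.02 CPM in the cKO-labelled ones. Ctrl 3 was 15.4-fold above Ctrl 2, and the other 2 Ctrl-labelled libraries lay within the range of the cKO-labelled ones or below it. The log2 fold change was -1.78 (SE 0.94, 95% interval -4.00 to 0.44, adjusted p = 0.208, edgeR's quasi-likelihood test), and without Ctrl 3 it turned to 0.34.

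**Figure D1:**
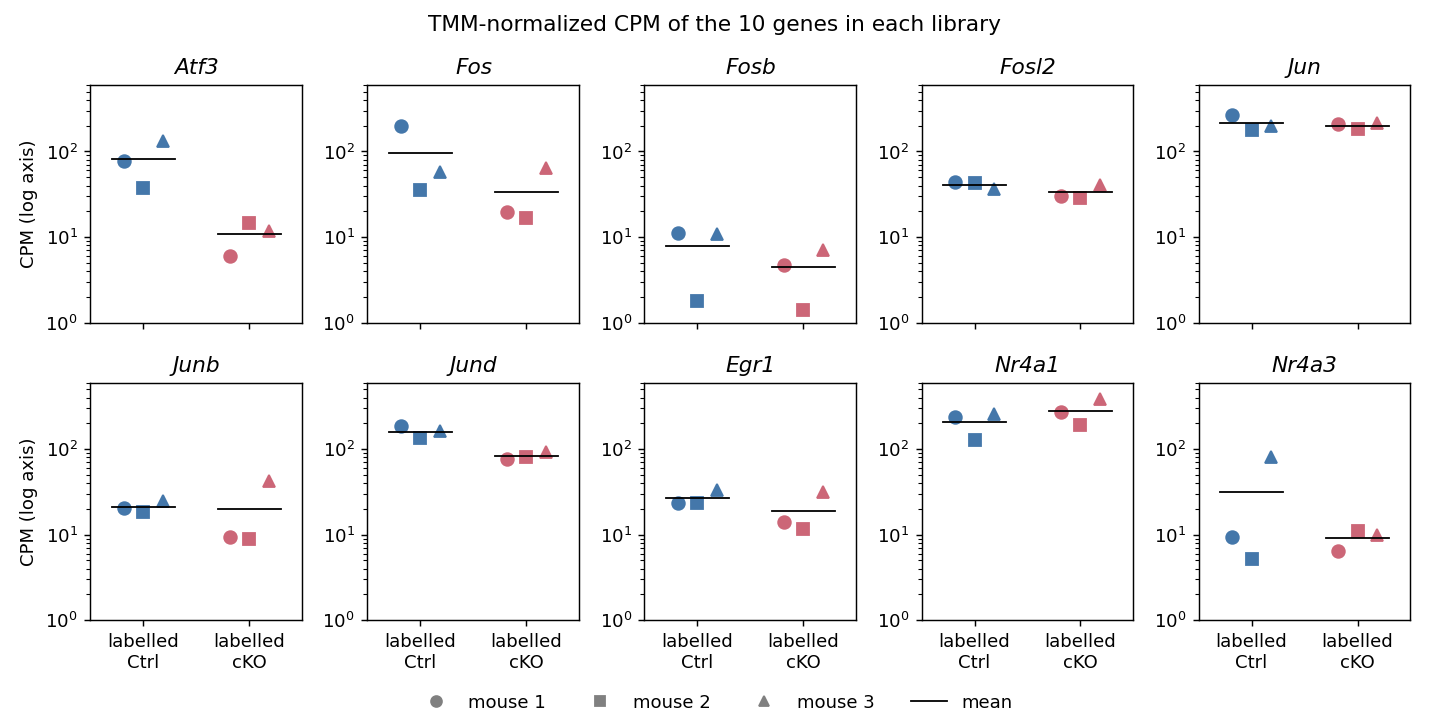
Each panel plots TMM-normalized CPM (log axis) of 1 gene in the 3 Ctrl-labelled libraries (blue) and the 3 labelled cKO (red). The symbol gives the library number, which names a mouse and is not taken as a pairing, and the line gives the mean. The groups separate in Atf3 and Jund and overlap in the other 8, and single libraries stand far from their group in Fos (Ctrl 1 at 196 CPM), Nr4a3 (Ctrl 3 at 80.5 CPM) and Junb (cKO 3 at 42.0 CPM).

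**Figure D2:**
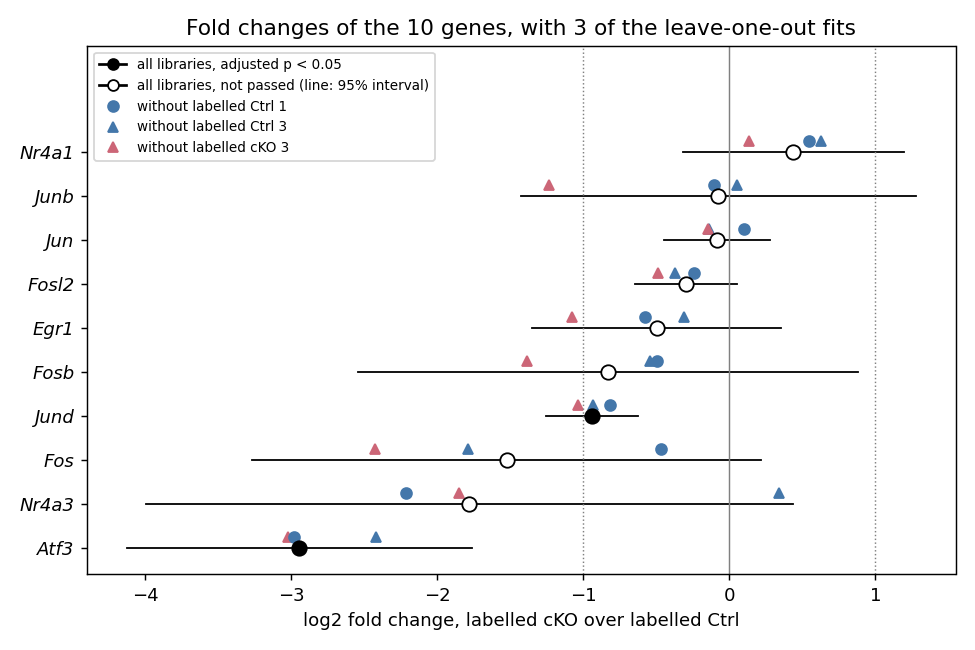
The log2 fold change of each gene (labelled cKO over labelled Ctrl) is plotted with its 95% interval, filled where the adjusted p is under 0.05, and the coloured points give the value without 1 library. Dotted lines mark 2-fold. Junb moves from -0.08 to -1.23 without cKO 3 and Nr4a3 from -1.78 to 0.34 without Ctrl 3, while Atf3 stays between -3.29 and -2.42 in all 6 such fits.

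The spread between mice of a labelled group was wide for most of the members. As a measure, the SD of log2 CPM within the groups was taken over both groups together. Its median was 0.684 over the 10 members and 0.167 over all genes tested. In 7 of the 10 members the SD lay above the 90th percentile of all genes, a share of 70% beside the 10% that lie there by definition. Nr4a3 (SD of log2 CPM 1.49), Fosb (1.35), Fos (1.17) and Junb (0.911) spread most, followed by Atf3 (0.797), Egr1 (0.570) and Nr4a1 (0.530). Jun (0.226), Fosl2 (0.222) and Jund (0.192) were the steady members, though also these lay above the median of all genes.

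The same was seen in the biological coefficient of variation that edgeR estimates for each gene. It was 73.3% for Nr4a3, where genes of like abundance had 14.4%, and 39.8% for Atf3, where they had 13.2%. For Jund it was 13.8%, beside 14.5% at its abundance. For Junb the spread sat in 1 group, since its SD was at the 65.2 percentile of all genes among the Ctrl-labelled libraries and at the 99.3 percentile among the cKO-labelled ones.

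The members did not all follow the same mouse. Ctrl 2 was the lowest of the Ctrl-labelled libraries for 9 of the 10 members, all but Fosl2, and for 29.5% of all genes. The highest was Ctrl 1 for 5 members (Fos, Fosb, Fosl2, Jun and Jund) and Ctrl 3 for the other 5 (Atf3, Junb, Egr1, Nr4a1 and Nr4a3). Among the cKO-labelled libraries, cKO 3 was the highest for 8 members and for 28.3% of all genes, the exceptions being Atf3 and Nr4a3. Relative to the mean log2 CPM of its group, Fos was 1.41 higher in Ctrl 1 and 1.21 higher in cKO 3, Junb was 1.47 higher in cKO 3, and Nr4a3 was 2.34 higher in Ctrl 3. Members are not independent of each other, so these counts describe the 6 libraries and carry no test. The labels give no time of day, order of collection or batch beside which the libraries could be set.

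**Figure D3:**
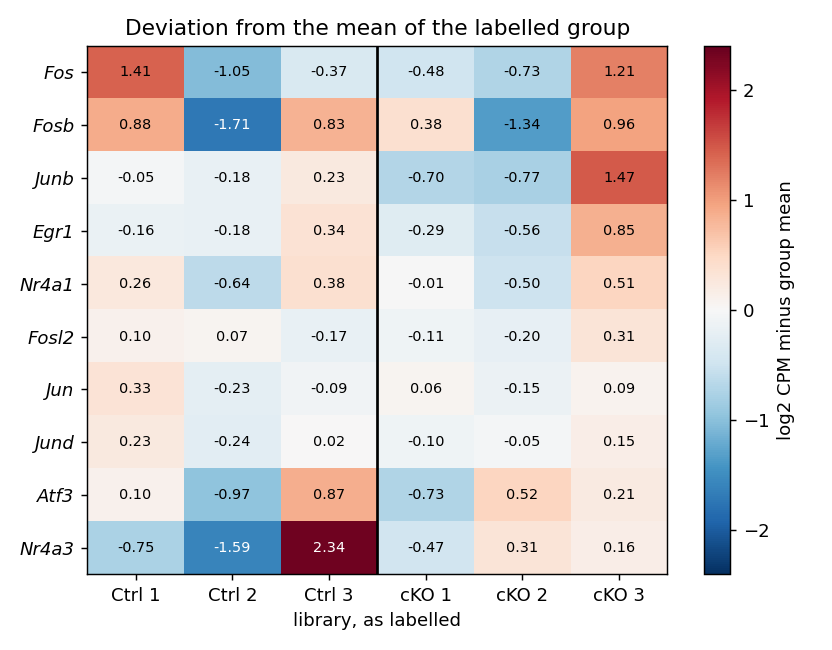
Each cell gives log2 CPM of 1 gene in 1 library minus the mean of the labelled group, with red higher and blue lower. Library cKO 3 is red for all 10 genes and strongest for Junb (1.47) and Fos (1.21), Ctrl 2 is blue for 9, and Ctrl 3 stands out for Nr4a3 (2.34).

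Levels were also compared between genes after division by the merged exon length, as CPM per kb. In the Ctrl-labelled libraries, Jund was the most abundant member with a mean of 96.2 ± 15.5 CPM per kb (SD, n = 3), followed by Jun (67.0 ± 14.1), Nr4a1 (59.0 ± 19.9), Fos (41.0 ± 37.1) and Atf3 (38.4 ± 22.3). Each of these overlapped its neighbour in the order. A gap lay between Atf3 and Junb (9.23 ± 1.38 CPM per kb), and Fosb was the lowest at 1.27 ± 0.846 CPM per kb. In the cKO-labelled libraries, Nr4a1 (79.9 ± 27.6 CPM per kb) and Jun (63.0 ± 5.50) overlapped at the top, Jund (50.1 ± 4.75) lay below Jun with no overlap, and Atf3 stood in the sixth place at 4.97 ± 1.98 CPM per kb, overlapping Junb and Egr1. The transcripts that the muscle used were not resolved, so these levels rest on the full annotated exon length of each gene.

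Genes whose pattern over the 6 libraries was most like that of Atf3 were ranked by the root mean square difference of centred log2 CPM over 12352 genes. The 5 nearest were Cilp (0.447), Rapgef4 (0.475), Otud1 (0.502), B3galt2 (0.522) and Hspa1a (0.530), where the median over genes was 1.58. Hspa1a, which encodes the inducible heat shock protein HSP70, had a log2 fold change of -3.15, and Rapgef4, a guanine nucleotide exchange factor that responds to cAMP, of -2.65. The order reflects the difference between the groups as well as that between mice. For Fos the 5 nearest were Sik1 (0.494), Zic1 (0.568), Cyp2f2 (0.579), Maff (0.601) and Csrnp1 (0.624), where the median over genes was 1.20. Sik1, a cAMP-inducible kinase, and Csrnp1 were among the other immediate early genes listed for this work, and Maff, a small MAF protein, among the other leucine zipper factors.

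Of 25 other AP-1, ATF, CREB, MAF and C/EBP genes, 22 were tested, and edgeR's quasi-likelihood test called 0 in either direction (3.92% and 2.13% of all genes). At an unadjusted p under 0.05, 6 were higher in Ctrl-labelled libraries and 3 in the cKO-labelled ones, and DESeq2's Wald test called 1 and 0. With no fold limit 5 and 1 passed the adjusted p (11.8% and 12.6% of all genes), and the median log2 fold change was -0.21, with 13 negative and 9 positive. Scaled by total counts, 9 and 0 passed, and the median was -0.46, with 19 negative and 3 positive. The share of all genes that passed with that scaling is not given here. Crem, which encodes activators and repressors that bind the cAMP response element, stood at 22.6, 18.3 and 25.4 CPM in the Ctrl-labelled libraries and at 10.8, 12.6 and 10.5 CPM in the cKO-labelled ones, with no overlap. It was lower in the cKO-labelled ones by a log2 fold change of -0.96 (SE 0.14, adjusted p = 0.00550, edgeR's quasi-likelihood test). Atf6b, an endoplasmic reticulum stress sensor, had a log2 fold change of -0.52 (SE 0.09, adjusted p = 0.00834 in the same fit).

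Of 42 other immediate early genes, 41 were tested. Called were 6 genes higher in Ctrl-labelled libraries (3.92% of all genes) and 1 higher in the cKO-labelled ones (2.13%), 33 of the 41 had a negative log2 fold change, and the median was -0.37. Ctgf and Cyr61, which encode secreted matricellular proteins, were the most abundant of the 6 along with Cited2. Ctgf stood at 198, 125 and 157 CPM in the Ctrl-labelled libraries and at 43.2, 59.4 and 57.1 CPM in the cKO-labelled ones (log2 fold change -1.59, SE 0.19, adjusted p = 0.00340, edgeR's quasi-likelihood test). Cyr61 stood at 187, 117 and 110 CPM against 56.0, 50.2 and 60.6 CPM (log2 fold change -1.31, SE 0.21, adjusted p = 0.00680 in the same fit). Neither gene overlapped between the groups, and both kept their calls with each library left out.

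Cited2, a transcriptional coregulator, was lower by -1.08 on the log2 scale (SE 0.10, adjusted p = 0.00151), Egr2, the relative of Egr1, by -1.41 (SE 0.22, adjusted p = 0.00687) and Trib1, a pseudokinase, by -1.43 (SE 0.27, adjusted p = 0.0116), all by edgeR's quasi-likelihood test. These 3 calls also held in all 6 leave-one-out fits. Rgs2, a regulator of G protein signalling (log2 fold change -1.11, adjusted p = 0.0495), held its call only without Ctrl 3, and its adjusted p reached 0.149 without Ctrl 1 and was 0.0658 in a robust fit, all by edgeR's quasi-likelihood test. Klf10, a zinc finger factor induced by TGF-beta, went the other way. It stood at 14.8, 21.9 and 23.1 CPM in the Ctrl-labelled libraries and at 45.2, 33.2 and 77.7 CPM in the cKO-labelled ones, with no overlap (log2 fold change 1.38, SE 0.32, adjusted p = 0.0216). The adjusted p of Klf10 was 0.0761 without Ctrl 1, 0.0600 without Ctrl 2 and 0.0508 without cKO 1, all by edgeR's quasi-likelihood test, and without cKO 3 its log2 fold change of 0.96 was under 2-fold.

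The spread between mice was wide in these genes too, with 19 of 41 above the 90th percentile of SD. Library cKO 3 was the highest of its group for 31 of the 41, or 75.6% (28.3% of all genes), and cKO 2 the lowest for 25, or 61.0% (37.0% of all genes).

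**Figure D4:**
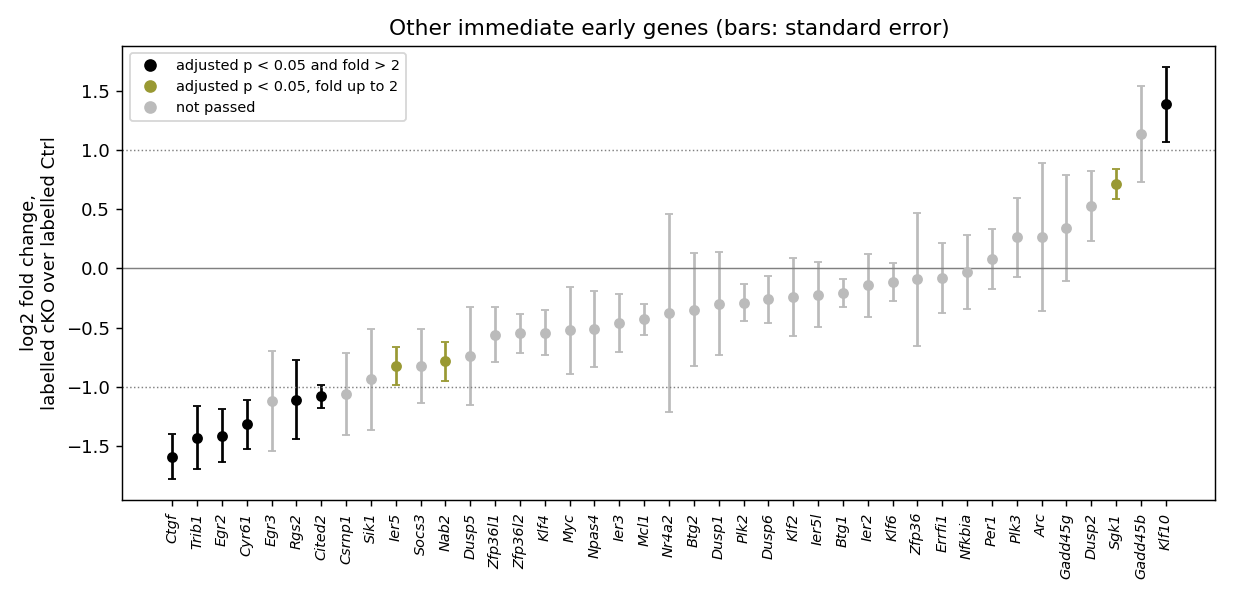
The log2 fold change (labelled cKO over labelled Ctrl) of the other immediate early genes tested is plotted with its standard error, in rising order, with colours for the adjusted p and fold thresholds and dotted lines at 2-fold. At the left Ctgf, Trib1, Egr2, Cyr61, Rgs2 and Cited2 pass both thresholds below 0, and at the right Klf10 (1.38) passes both above 0.

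Kinases and factors that act upstream of these genes, among them the MAP kinases, their kinases, ELK, SRF and the CREB coactivators, were compared next. Of 36 listed, 35 were tested, all with fitted differences below 2-fold. The edgeR quasi-likelihood test called 0 in either direction (3.92% and 2.13% of all genes), as did DESeq2's Wald test. At an unadjusted p under 0.05, 3 were higher in Ctrl-labelled libraries and 12 in the cKO-labelled ones. With no fold limit 2 and 11 passed the adjusted p with TMM (11.8% and 12.6% of all genes). With libraries scaled by total counts 8 and 5 passed, for which the share of all genes is not given here. Mapk9, which encodes the stress kinase JNK2, stood at 47.7, 49.7 and 54.0 CPM in the Ctrl-labelled libraries and at 90.5, 82.5 and 88.5 CPM in the cKO-labelled ones. Its groups did not overlap (log2 fold change 0.79, SE 0.08, adjusted p = 0.00203). Map2k4, a kinase that activates JNK, had a log2 fold change of 0.63 (SE 0.08, adjusted p = 0.00397, both by edgeR's quasi-likelihood test). The median of the list was 0.18 with TMM and -0.08 when libraries were scaled by total counts, a scaling that moves the median of all genes from -0.02 to -0.27, so the sign of the list's median depends on the scaling.

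Of 28 genes documented as targets of AP-1 or ATF3, 21 were tested, and edgeR's quasi-likelihood test called 5 higher in Ctrl-labelled libraries (3.92% of all genes) and 0 in the cKO-labelled ones (2.13%). DESeq2's Wald test called 7 and 0, and 11 and 0 had an unadjusted p under 0.05. The median log2 fold change was -0.72, with 17 negative and 4 positive. Among the 5 were Runx1, a transcription factor that rises in denervated muscle, Spp1 (osteopontin), Fn1 (fibronectin) and Timp1 (an inhibitor of matrix proteases). Runx1 stood at 7.79, 6.73 and 10.4 CPM in the Ctrl-labelled libraries and at 2.17, 3.66 and 2.54 CPM in the cKO-labelled ones (log2 fold change -1.57, SE 0.24, adjusted p = 0.00660). Fn1 stood at 158, 154 and 193 CPM against 68.6, 106 and 70.4 CPM (log2 fold change -1.04, SE 0.19, adjusted p = 0.00955). Neither overlapped. Runx1 and Spp1 (-1.63) kept their calls in all 6 leave-one-out fits of the edgeR test, while Timp1 (-1.78), at 1.05 to 1.34 CPM in Ctrl-labelled libraries, passed in 1, that without cKO 2. Fn1 kept its adjusted p in those fits but fell under 2-fold without Ctrl 3 (-0.93), cKO 1 (-0.94) or cKO 3 (-0.96).

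Markers of some cell types also differed between the labelled groups, and in bulk RNA fewer cells of a type and less RNA per cell cannot be told apart. All 12 macrophage and leukocyte markers had a negative log2 fold change with no overlap between the groups (21.9% of all genes), their summed level was 236 to 257 CPM in Ctrl-labelled libraries and 117 to 148 CPM in the cKO-labelled ones, and Cd68 and Lyz2 were called. Slow fibre markers summed to 8481 to 14598 CPM against 446 to 3873 CPM, with Myl2, Tnnt1 and Atp2a2 called. The summed level of 10 muscle fibre markers was 102011 to 136481 CPM against 188314 to 241804 CPM, with Myh4, Atp2a1 and Pvalb, genes of fast fibres, called higher in cKO-labelled libraries. The general fibre markers Acta1 and Des, looked up after the values were seen, had log2 fold changes of 0.19 and -0.05 that did not pass (adjusted p = 0.474 and 0.853, edgeR's quasi-likelihood test). Fibroblast markers summed to 1387 to 1601 CPM against 886 to 1811 CPM, with Col3a1 called, 5 of 8 log2 fold changes negative and 3 positive, and Schwann cell markers to 157 to 227 CPM against 89.6 to 146 CPM, with Pmp2 called.

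Endothelial and mural markers summed to 686 to 692 CPM against 612 to 645 CPM, with 0 of 10 called. Neutrophil markers summed to 1.33 to 2.32 CPM against 1.25 to 1.58 CPM. Satellite cell markers (46.0 to 51.5 CPM against 49.4 to 53.9 CPM) and adipocyte markers (24.4 to 81.1 CPM against 32.4 to 75.8 CPM) had 0 called as well. Of the 10 markers named, Lyz2 and Atp2a1 kept an adjusted p below 0.05 in edgeR's quasi-likelihood test with each library left out but stayed past 2-fold in 5 and 4 of the 6 fits, and the other 8 lost the adjusted p in 2 to 5 fits. The part of any of these cell types, or of the fibre types, in the differences of Atf3, Jund and the target genes was not tested.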

How the data were processed

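GP muscle RNA was sequenced from 3 mice labelled Ctrl and 3 labelled cKO. The authors trimmed reads with Trimmomatic 0.39 after FastQC 0.11.8, aligned them to mm10 with HISAT2 2.1.0 and counted them per gene with featureCounts 1.6.2, per the submitters' processing notes. The deposited values are raw counts per gene, 1 table per library, with no normalization. The annotation and strand setting of the counting are not given in the sources used here, so reads of a gene and its antisense partner cannot be told apart.

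Counts were analysed in R 4.3.3 with edgeR 4.0.16 (TMM, filterByExpr, estimateDisp, glmQLFit, glmQLFTest, Benjamini-Hochberg adjustment over 14180 genes). The standard error of a log2 fold change was derived from the F statistic, and its 95% interval from the degrees of freedom of the test. An exact permutation test (two-sided) was run on the CPM of each member. The steps were tested on simulated data. Alternatives were DESeq2's size factors, total counts, DESeq2 1.42.0, other filters, a robust fit, the replicate number as a block, no fold limit and each library left out.

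Groups follow the sample labels. Besides the members, the genes named are those called of each list, at most 8 by smallest p, or the 2 with the smallest p where none was called, the 5 genes nearest to Atf3 and to Fos with a mean CPM of at least 1, and at most 3 called markers per cell type. A gene that this rule selects is not reported here. Promoters were matched by symbol to RefSeq. The members and lists were chosen with earlier results of these data known.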

Additional observations from a re-analysis of the deposited data

How the results depend on the processing

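Atf3 and Jund kept their direction and an adjusted p under 0.05 (edgeR's quasi-likelihood test, or DESeq2's) under every alternative run. Over all log2 fold changes of named genes, alternatives left 536 on the same side of the threshold, brought 13 past it, took 55 below it and reversed 5. The reversed values were Jun without Ctrl replicate 1 (0.10), Nr4a3 without Ctrl replicate 3 (0.34) and Junb without Ctrl replicate 3 (0.05), cKO replicate 1 (0.25) and cKO replicate 2 (0.27). With each library left out, Jun ran from -0.20 to 0.10, Nr4a3 from -2.28 to 0.34 and Junb from -1.23 to 0.27. The causes were not tested.

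Total counts moved the median over all genes, as a log2 fold change, from -0.02 to -0.27. Members called higher in Ctrl-labelled libraries were then 2 (Atf3 and Jund), and Fosl2 had a log2 fold change of -0.56 (adjusted p = 0.0273, edgeR's quasi-likelihood test). All genes called were then 1023 higher in Ctrl-labelled libraries and 157 in the cKO-labelled ones, against 556 and 302, other immediate early genes higher in Ctrl-labelled libraries were 11, and other AP-1, ATF, CREB, MAF and C/EBP genes 2. With no fold limit the counts were 2 members, 1668 and 1786 of all genes, 5 and 1 of the other leucine zipper genes, 2 and 11 of the upstream kinases and factors, 8 and 2 of the other immediate early genes, and 7 and 0 of the target genes. DESeq2's Wald test called 1 other leucine zipper gene higher in Ctrl-labelled libraries and 2 immediate early genes higher in the cKO-labelled ones.

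With each library left out in turn, members called higher in Ctrl-labelled libraries ranged from 1 to 4 (2 without Ctrl 2 and 4 without cKO 3), and genes called higher in cKO-labelled libraries from 172 (without Ctrl 1) to 387. The counts of all genes called higher in Ctrl-labelled libraries in these fits are not given here. Other leucine zipper genes ranged from 0 to 2 (2 without Ctrl 2, 1 without cKO 2 or cKO 3) and from 0 to 1 (without Ctrl 3 or cKO 2). Immediate early genes higher in cKO-labelled libraries ranged from 0 (without Ctrl 1, Ctrl 2, cKO 1 or cKO 3) to 2, and target genes higher in Ctrl-labelled libraries from 3 (without Ctrl 3, cKO 1 or cKO 3) to 6.

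Over all genes, the correlation of deviations from the group means was 0.08, -0.21 and -0.002 for libraries of the same number. With 3 libraries a group, this cannot settle whether libraries of the same number belong together. The main fit did not treat them as pairs. With the replicate block, 1 and 0 members and 448 and 236 of all genes were called, with 1 target gene higher in cKO-labelled libraries against 0, and Nr4a3 had a log2 fold change of -0.83. The block lowered the SE of Fosb from 0.73 to 0.20, of Nr4a1 from 0.32 to 0.12 and of Egr1 from 0.36 to 0.19. Their adjusted p-values were then 0.0674, 0.0702 and 0.0887 (edgeR's quasi-likelihood test). The SE of Fosl2 rose from 0.15 to 0.17. With 3 libraries a group, genes as variable as Fos, Fosb and Nr4a3 have intervals of several log2 units, so a difference of 2-fold was not detectable for them.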

Other observations

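The 5 genes nearest to Nr4a3 over the 6 libraries, looked up after its values were seen, were Nlrc5 (root mean square difference of log2 CPM 0.422), Gbp4 (0.425), Ifi47 (0.456), Tgtp1 (0.459) and Tgtp2 (0.567), where the median over 12352 genes was 1.31. The pattern of Nr4a3 rests on Ctrl 3, at 80.5 CPM beside 9.37 and 5.21 CPM in the other Ctrl-labelled libraries, and its log2 fold change of -1.78 was 0.34 without it. Like Nr4a3, the 5 genes had negative log2 fold changes that did not pass, from -1.99 for Tgtp2 to -1.37 for Nlrc5, and the smallest of their adjusted p-values was 0.120, for Tgtp2 (edgeR's quasi-likelihood test). Tgtp1 and Tgtp2 are near-identical copies, so the split of reads between them is uncertain. Among the members themselves, Junb and Egr1 were close, with a root mean square difference of 0.326, and Jun and Fosl2 were the closest at 0.232. With the difference between the groups taken out, Jun and Jund were the closest at 0.104, and Junb and Egr1 were at 0.317.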
